A study of Sus scrofa with 16 samples.

Results

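Of the 3875 genes counted in satellite cells (SCs) of the pig, 5 are described here: *FITM1*, *CIDEA*, *LIPG*, *ANGPTL4* and *RBP4*. They encode 2 proteins of lipid droplets, a lipase, a secreted lipase inhibitor and the retinol carrier of blood. All 5 were found as rows of the count table. They were chosen with results of these data in view, namely their levels in DMD and WT cells, so that their differences between the genotypes are given as a description without a test. The SCs came from the *intercostalis* (INT) muscle of 4 DMD and 4 wild-type (WT) male piglets aged 3 days, and were sorted magnetically, CD31+ and CD45+ cells being removed and cells with integrin β1, NCAM1 and M-cadherin kept. Each animal gave 1 proliferating (PROL) sample, kept in growth medium with fetal serum and basic fibroblast growth factor, and 1 differentiated (DIFF) sample, kept in medium with less serum, here from horse. The 16 samples therefore form 4 groups of 4, namely DMD PROL, WT PROL, DMD DIFF and WT DIFF. All were taken at passage 6, and DIFF is stated as 10 days in the sequencing methods and 7 days in the culture methods. DMD pigs model Duchenne muscular dystrophy, and the allele is described through the pig model, which carries a deletion of exon 52 of *DMD*, the dystrophin gene. The cells are primary cultures of single animals, and the enrichment does not show which share of a culture was myogenic.

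Muscle cells store fatty acids as triglyceride in lipid droplets, which bud from the endoplasmic reticulum. *FITM1* encodes a protein of that membrane, found mainly in skeletal muscle and heart, that binds triglyceride and promotes droplet formation. *CIDEA* encodes a droplet protein that moves lipid between droplets and makes them larger, best known from brown fat. Outside the cell, lipases release fatty acids from lipoproteins. *LIPG* encodes endothelial lipase, a secreted phospholipase that acts mostly on high density lipoprotein, and *ANGPTL4* a secreted inhibitor of lipoprotein lipase that is a known target of the PPAR receptors. *RBP4* encodes the protein that carries retinol in plasma, where it is bound to transthyretin and made mostly by the liver.

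Levels are given as CPM, the usual per-library scaling of counts, here with TMM factors over the 16 libraries, and errors are SDs over the 4 animals of a group. Library totals ran from 1477772 to 1664700 counts in DMD PROL, 1110050 to 1657300 in WT PROL, 1434476 to 1781174 in DMD DIFF and 1572180 to 1762968 in WT DIFF. One count was therefore worth somewhat less than 1 CPM, and low levels rest on few counts. The *DMD* row held 24 to 32 counts per library in DMD PROL and 6 in each WT PROL library, and 30 to 48 in DMD DIFF against 12 to 22 in WT DIFF. A library of 3′ tags need not show the deletion, so this row does not check the genotype labels. Of the myogenic markers, *PAX7* is not analysed here, and *MYF5* had no count in WT. *DES* (desmin) averaged 891 CPM over the 16 libraries, with group means far apart. They were 1169 CPM in DMD PROL and 70.9 CPM in WT PROL, and 2055 CPM in DMD DIFF and 271 CPM in WT DIFF.

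**Figure D1:**
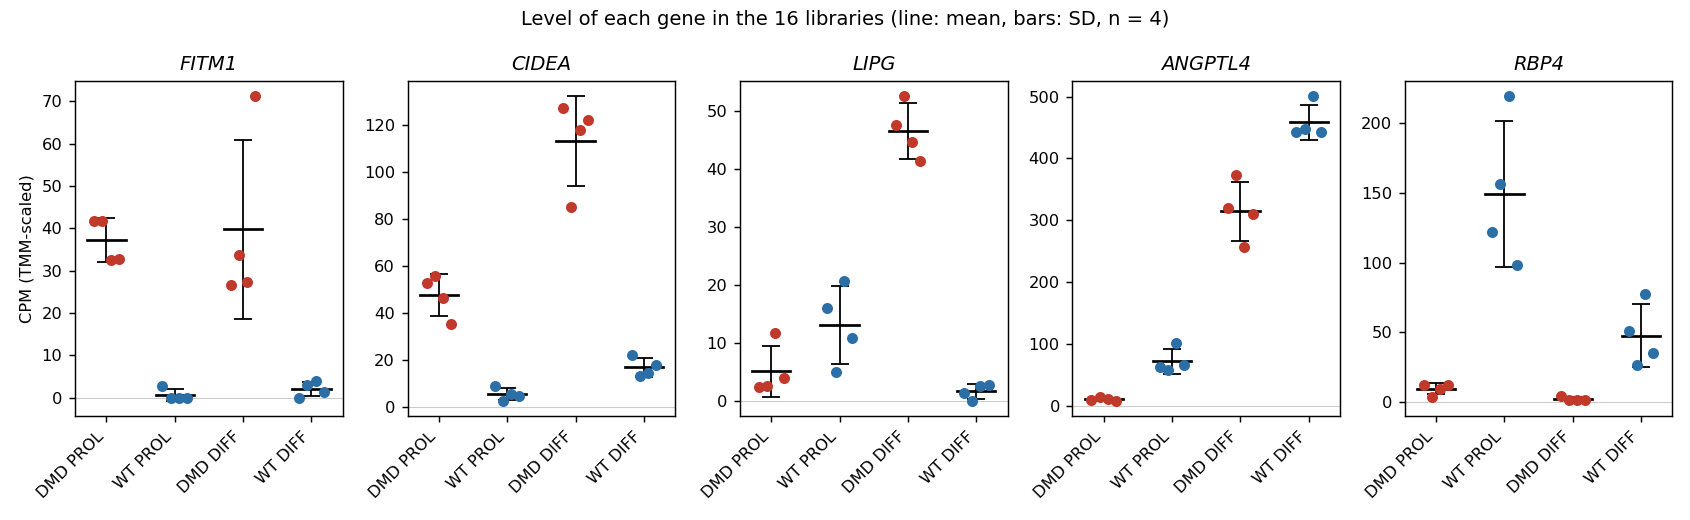
Level of *FITM1*, *CIDEA*, *LIPG*, *ANGPTL4* and *RBP4* in CPM in each library of DMD PROL, WT PROL, DMD DIFF and WT DIFF. Points are libraries, lines are group means and bars are SDs (n = 4). *FITM1* and *CIDEA* lay higher in DMD in both states and *RBP4* lower, *LIPG* was highest in DMD DIFF, and *ANGPTL4* was high in DIFF of both genotypes.

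*FITM1*, the gene of droplet formation, was found almost solely in DMD SCs. Its levels were 41.8, 41.7, 32.6 and 32.8 CPM in DMD PROL, against 2.91 CPM in WT PROL replicate 1 and 0 in the other 3 WT PROL libraries. In DIFF they were 26.6, 33.8, 27.4 and 71.1 CPM in DMD, against 0, 2.95, 3.88 and 1.36 CPM in WT. No WT library of either state reached the lowest DMD library, at 26.6 CPM. The mean was 37.2 ± 5.24 CPM in DMD PROL and 0.728 ± 1.46 CPM in WT PROL, and 39.7 ± 21.2 CPM in DMD DIFF and 2.05 ± 1.72 CPM in WT DIFF (SD, n = 4 each). The edgeR log2 fold change of DMD over WT was 5.65 in PROL and 4.21 in DIFF.

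The WT side of these folds is a handful of counts. The 4 DMD PROL libraries held 240 counts of *FITM1* and the 4 WT PROL libraries 4, all in the second technical duplicate of replicate 1. The ratio of pooled counts, scaled by library totals, was 51.2 in PROL, with a 95% counting interval (exact binomial) of 19.8 to 189.6. In DIFF 234 DMD counts stood against 12 of WT, with a ratio of 20.9 (11.7 to 41.1). All deposited values are even numbers, and with every count halved the intervals widened to 13.9 to 428 in PROL and 9.32 to 58.1 in DIFF. Such intervals cover counting error alone, not the spread between animals. Without WT PROL replicate 1 no WT PROL count remained. *FITM1* was then at least 53.0-fold higher in DMD PROL, with the remaining WT group set at 3 counts in all, and at least 26.5-fold higher on the same 3 counts if the deposited counts are halved. The fitted log2 fold change, which is no bound, was 8.89. These values leave out the only WT PROL library with counts. They are no lower limit for the 4 libraries together, whose interval began at 19.8, or at 13.9 with counts halved.

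*CIDEA*, the droplet fusion gene, was higher in DMD in both states and higher in DIFF in both genotypes. Its levels were 52.9, 55.6, 46.6 and 35.4 CPM in DMD PROL, against 8.73, 2.48, 5.43 and 4.62 CPM in WT PROL. In DIFF they were 127, 85.1, 118 and 122 CPM in DMD, against 22.0, 13.3, 14.2 and 17.7 CPM in WT. The 4 groups did not overlap, and ran from DMD DIFF through DMD PROL and WT DIFF to WT PROL. The means were 47.6 ± 8.98 CPM in DMD PROL and 5.32 ± 2.60 CPM in WT PROL, and 113 ± 19.1 CPM in DMD DIFF and 16.8 ± 3.96 CPM in WT DIFF. The log2 fold change of DMD over WT was 3.15 in PROL and 2.73 in DIFF. Among the 5 genes its DIFF value departed least from its PROL value, by −0.42 on the log2 scale.

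*LIPG*, the endothelial lipase gene, was the member whose genotype difference took opposite signs in the 2 states. Its levels were 2.46, 2.53, 11.6 and 3.94 CPM in DMD PROL, against 16.0, 4.96, 20.6 and 10.8 CPM in WT PROL. These 2 groups overlapped, since DMD PROL replicate 3 lay above 2 of the WT libraries. In DIFF the levels were 47.6, 52.5, 44.6 and 41.3 CPM in DMD, against 1.38, 0, 2.59 and 2.72 CPM in WT, with a wide gap between the genotypes. The means were 5.14 ± 4.39 CPM in DMD PROL and 13.1 ± 6.76 CPM in WT PROL, and 46.5 ± 4.75 CPM in DMD DIFF and 1.67 ± 1.27 CPM in WT DIFF.

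The log2 fold change of DMD over WT of *LIPG* was −1.33 in PROL and 4.69 in DIFF, a difference of 6.03. In PROL it rested on 34 counts in DMD libraries and 82 in WT libraries, whose scaled ratio was 0.354 (0.230 to 0.534, and 0.189 to 0.637 with counts halved). Of the DMD counts 20 were in replicate 3, without which the log2 fold change was −2.12. In the other 3 DMD PROL libraries all counts came from the first technical duplicate. In DIFF 278 DMD counts stood against 10 of WT, with a ratio of 29.8 (16.0 to 62.9, and 12.5 to 93.3 with counts halved).

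*ANGPTL4*, the lipoprotein lipase inhibitor, was lower in DMD in both states, by far less in DIFF. Its levels were 8.61, 13.9, 10.5 and 7.87 CPM in DMD PROL, against 62.6, 57.1, 101 and 66.2 CPM in WT PROL. In DIFF they were 319, 373, 256 and 310.2 CPM in DMD, against 443, 448, 501 and 442 CPM in WT. No groups overlapped, and the order ran from WT DIFF through DMD DIFF and WT PROL to DMD PROL. The means were 10.2 ± 2.69 CPM in DMD PROL and 71.7 ± 19.9 CPM in WT PROL, and 315 ± 47.8 CPM in DMD DIFF and 458 ± 28.3 CPM in WT DIFF. The log2 fold change of DMD over WT was −2.81 in PROL and −0.55 in DIFF, the second being under the fold threshold of 0.6 used for calls. Over the 8 other settings tried, the DIFF value ranged from −0.64 to −0.41. It was beyond that threshold, at −0.64, with the second technical duplicate alone and likewise without DMD DIFF replicate 2.

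*RBP4*, the retinol carrier gene, was lower in DMD in both states and lower in DIFF than in PROL in all 8 animals. Its levels were 12.3, 3.79, 9.31 and 11.8 CPM in DMD PROL, against 122, 156, 219 and 98.5 CPM in WT PROL. In DIFF they were 4.20, 1.17, 1.44 and 1.42 CPM in DMD, against 50.9, 26.5, 77.6 and 35.4 CPM in WT. The lowest WT library of any state, at 26.5 CPM, was above the highest DMD library, at 12.3 CPM. The means were 9.30 ± 3.90 CPM in DMD PROL and 149 ± 52.5 CPM in WT PROL, and 2.06 ± 1.43 CPM in DMD DIFF and 47.6 ± 22.4 CPM in WT DIFF. The log2 fold change of DMD over WT was −4.01 in PROL and −4.51 in DIFF.

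In DIFF the *RBP4* fold rests on 12 DMD counts against 282 of WT, with a ratio of 0.0456 (0.0233 to 0.0810, and 0.0165 to 0.102 with counts halved). Of these 12 counts 6 were in DMD DIFF replicate 1, and without that library the log2 fold change was −5.08. In PROL 60 DMD counts stood against 952 of WT, with a ratio of 0.0538 (0.0407 to 0.0699, and 0.0359 to 0.0779 with counts halved).

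Among the 1914 genes tested in PROL, 15.8% had all DMD libraries above all WT libraries and 14.3% had all below, and 18.2% were called by edgeR. In DIFF 22.1% of 1916 genes lay wholly above and 23.2% wholly below, and 33.6% were called. All members passed the filter on low counts in these 2 comparisons, some of them through 1 genotype alone. *FITM1* in both states and *LIPG* in DIFF had 0 of 4 WT libraries over the level that the filter asks for. *RBP4* in DIFF had 0 of 4 DMD libraries over it. In PROL *CIDEA* had 1 of 4 WT libraries over it and *LIPG* 1 of 4 DMD libraries. Of the 5, 4 did not overlap in PROL (*FITM1* and *CIDEA* higher, *ANGPTL4* and *RBP4* lower), and 5 of 5 did not in DIFF (*FITM1*, *CIDEA* and *LIPG* higher, *ANGPTL4* and *RBP4* lower). Since the members were chosen on these contrasts, nothing is read from those counts. Just outside the fold threshold lay *ANGPTL4* in DIFF at −0.55, and the smallest member change beyond it was that of *LIPG* in PROL at −1.33.

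Ranked by their group means, some neighbours did not differ beyond their spread. For *FITM1* the ranges of DMD DIFF and DMD PROL overlapped, and so did those of WT DIFF and WT PROL. For *LIPG* the order was DMD DIFF, WT PROL, DMD PROL and WT DIFF, where WT PROL overlapped with DMD PROL, and DMD PROL with WT DIFF. For *RBP4* it was WT PROL, WT DIFF, DMD PROL and DMD DIFF, of which the 2 DMD groups overlapped.

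**Figure D2:**
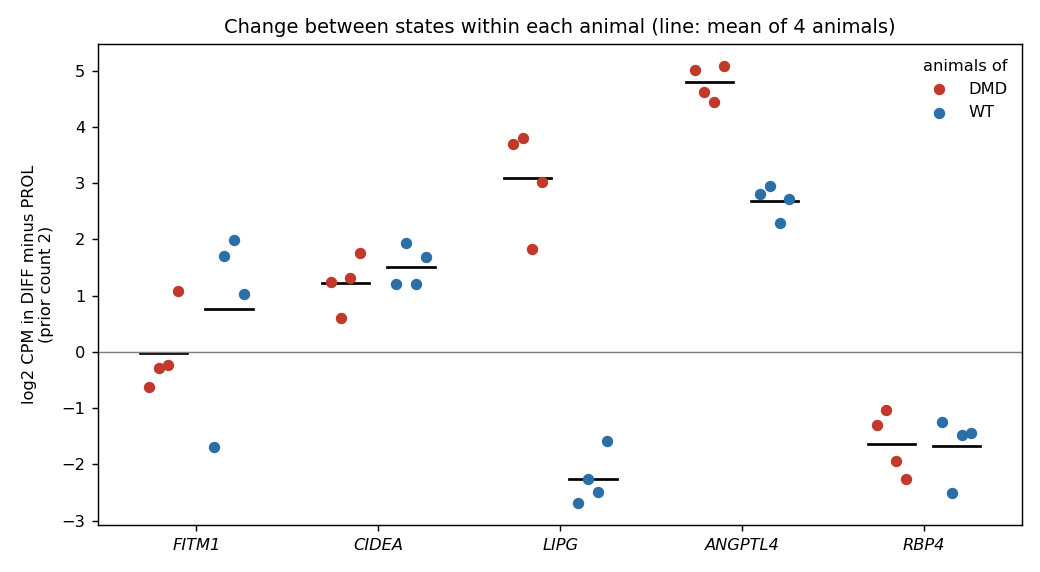
Difference of log2 CPM (prior count 2) between the DIFF and the PROL sample of each animal, DMD on the left and WT on the right of each gene. Points are animals and lines are means of 4. All 4 DMD animals lay between 1.83 and 3.81 in *LIPG* and all 4 WT animals between −2.69 and −1.58.

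The change between states was tested within each genotype, over all genes, between the 4 DIFF and 4 PROL libraries. The libraries are the same ones whose levels chose the members. In DMD SCs *ANGPTL4* rose most. Within the animals its CPM in DIFF was 24.5 to 39.4 times that in PROL, and the log2 fold change was 4.92 (SE 0.19, edgeR adjusted *p* = 4.8e-12). *CIDEA* rose in 4 of 4 by 1.23 (SE 0.18, edgeR adjusted *p* = 3.5e-05). *FITM1* did not pass, at 0.08 (SE 0.29, edgeR adjusted *p* = 0.861). It was lower in DIFF in 3 of 4 DMD animals and higher in the other, and the value was −0.34 without DMD DIFF replicate 4. In that library 72 of 100 counts of *FITM1* came from the second duplicate, which held 1.78 times the counts of the first. *LIPG* was higher in DIFF in 4 of 4 DMD animals, at 3.13 (SE 0.38), and at 3.93 without DMD PROL replicate 3. It is given without a *p*, since 1 of 4 DMD PROL libraries was over the filter's level and 4 of 4 in DIFF, so that it entered the test through the group where it is high.

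In WT SCs *ANGPTL4* rose in 4 of 4 animals by 2.65 (SE 0.15, edgeR adjusted *p* = 4.3e-09), with 4.96 to 7.84 times as many CPM in DIFF. *RBP4* fell in 4 of 4 WT animals, at −1.66 (SE 0.36, edgeR adjusted *p* = 0.00439). *CIDEA* was higher in DIFF in 4 of 4 WT animals, at 1.64 (SE 0.41), from a low base of 4 to 12 counts per WT PROL library. It too has no *p* here, with 1 of 4 WT PROL libraries and 4 of 4 WT DIFF libraries over the filter's level.

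Of the members, 4 passed the filter in DMD and 3 in WT, and no count of calls is read from them. Over all genes, 28.4% of 1886 were called in DMD (16.0% higher and 12.4% lower) and 32.2% of 1921 in WT (17.9% higher and 14.3% lower). All DIFF libraries lay above all PROL libraries in 21.7% of genes in DMD and 23.6% in WT, and below in 18.9% in DMD and 19.5% in WT. Among the members they did not overlap for *CIDEA*, *LIPG* and *ANGPTL4* in DMD, and for *CIDEA*, *LIPG*, *ANGPTL4* and *RBP4* in WT.

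Of the members 3 were too low for the test in 1 genotype, and were fitted without the filter on counts. *LIPG* was lower in DIFF in 4 of 4 WT animals. In WT its value was −2.92 (SE 0.64) without the filter, on 82 counts in PROL and 10 in DIFF. Of the WT DIFF libraries 0 of 4 were over the filter's level. *RBP4* was lower in DIFF in 4 of 4 DMD animals, at −2.15 (SE 0.69) without the filter and −2.21 by DESeq2. This rests on 60 counts in DMD PROL and 12 in DMD DIFF, where 0 of 4 libraries were over that level. *FITM1* in WT gave 1.44 (SE 1.38), and the 4 WT animals differed in direction. Without the filter 8.27% of 3046 genes were called lower in DMD and 9.82% of 3045 in WT. The adjusted *p* of that fit cannot be compared with those of the filtered fit, and none is given for these 3 members. For *ANGPTL4* in DMD the edgeR adjusted *p* was 4.8e-12 with the filter and 6.9e-164 without it. For *RBP4* in WT it was 0.00439 with the filter and 0.0140 without it.

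The members' state changes differed between the genotypes by very different amounts, which are described here without a test, since both genotype contrasts enter them. The log2 change of DIFF over PROL in DMD minus that in WT was 6.03 for *LIPG* and 2.27 for *ANGPTL4*. It was −0.42 for *CIDEA*, −0.51 for *RBP4* and −1.44 for *FITM1*, whose WT change rests on 4 counts in PROL and 12 in DIFF. For *LIPG* all 4 DMD animals moved up and all 4 WT animals moved down. For *ANGPTL4* the DMD animals rose by 4.45 to 5.08 and the WT animals by 2.29 to 2.94 on the log2 CPM scale, without overlap. For *CIDEA* (0.60 to 1.75 in DMD and 1.20 to 1.94 in WT) and *RBP4* (−2.26 to −1.04 in DMD and −2.50 to −1.24 in WT) the animals of the genotypes overlapped.

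Some animals kept their place in a member in both states. WT replicate 3 had the highest WT level of *RBP4* and of *ANGPTL4* in both states, and of *LIPG* in PROL. DMD replicate 2 had the highest DMD level of *ANGPTL4* in both states and the lowest of *RBP4* in PROL. In DIFF it tied in *RBP4* with replicates 3 and 4, at 2 counts each. With 4 animals a genotype, this is a description.

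In bulk cultures, fewer cells of a type and less RNA per cell cannot be told apart, so the levels of other marker lists are set beside those of the members. Skeletal muscle fiber genes moved with *FITM1* and *CIDEA*. The summed level of 11 such genes (of 18 listed, led by *MYLPF*, *MYL1* and *ACTA1*) was 4718 to 8597 CPM in DMD PROL and 239 to 348 CPM in WT PROL, and 17227 to 21206 CPM in DMD DIFF and 2789 to 4919 CPM in WT DIFF. In DMD this sum was higher in DIFF without overlap, whereas *FITM1* did not pass the test of that change. Fibroblast genes (8 of 14 listed, led by *COL1A2*, *DCN* and *COL3A1*) were lower in DMD by their sum, as *ANGPTL4* and *RBP4* were, but not gene by gene. They summed to 4201 to 4663 CPM in DMD PROL and 8359 to 10165 CPM in WT PROL, and to 10224 to 13287 CPM in DMD DIFF and 22012 to 25122 CPM in WT DIFF. Over all genes 8.36% were called higher in DMD and 9.87% lower in PROL, and 16.1% and 17.5% in DIFF. Of the fibroblast genes 0 of 7 tested were called higher and 5 lower in PROL, and in DIFF 1 of 8 higher and 5 lower. The one higher was *COL5A1*, a fibrillar collagen named after its values were seen, at 101 CPM in DMD DIFF and 32.1 CPM in WT DIFF. *COL1A2*, which holds much of the sum, was at 9100 CPM in DMD DIFF and 7909 CPM in WT DIFF and was not called (0.20, edgeR adjusted *p* = 0.140). Myogenic cell markers (6 of 11 listed, led by *DES*, *MEF2C* and *MYOG*) summed to 1067 to 1540.5 CPM in DMD PROL and 72.8 to 93.9 CPM in WT PROL, and to 2058 to 2347 CPM in DMD DIFF and 263 to 450.5 CPM in WT DIFF. The part of these 3 lists in the members' levels was not tested.

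Endothelial markers moved with *LIPG* in some comparisons and against it in DIFF. Their sum over 5 genes (of 15 listed, mainly *ERG*, *PECAM1* and *ENG*) was 16.0 to 34.1 CPM in DMD PROL and 146 to 163 CPM in WT PROL, and 33.8 to 50.4 CPM in DMD DIFF and 78.4 to 123 CPM in WT DIFF. It was lower in DMD in both states, as *LIPG* was by its mean in PROL, while in DIFF *LIPG* was higher in DMD. Between states the sum was higher in DMD DIFF than in DMD PROL, with a slight overlap, and lower in WT DIFF than in WT PROL, the directions that *LIPG* took. The genes were not alike, since *PECAM1* was higher in WT DIFF (38.1 CPM) than in WT PROL (19.8 CPM), and *ERG* lower (52.0 CPM in WT DIFF and 105 CPM in WT PROL). *VWF* and *CLDN5* held 4 and 2 counts in all, and the part of endothelial cells in the level of *LIPG* was not tested.

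Of the defining fat cell markers several were at or near 0. *ADIPOQ* (adiponectin) and *LPL* (lipoprotein lipase) had no count in any of the 16 libraries. This allows up to 0.123 CPM over all libraries together at 3 counts as deposited, and more if the deposited counts are doubled. *PLIN1*, *CIDEC* and *LEP* had 4, 2 and 8 counts in all. The 11 adipocyte markers in the table (of 15 listed, led by *PPARG*, *LIPE* and *GPD1*) summed to 11.4 to 19.7 CPM in DMD PROL and 3.08 to 17.4 CPM in WT PROL, and 17.1 to 31.7 CPM in DMD DIFF and 15.5 to 35.3 CPM in WT DIFF. They overlapped between the genotypes in both states, but the genes behind the sum ran in opposite directions. *PPARG*, the nuclear receptor of fat cell formation, averaged 4.88 CPM in DMD DIFF and 14.4 CPM in WT DIFF, and *GPD1*, the glycerol phosphate dehydrogenase, 12.1 CPM in DMD DIFF and 0.987 CPM in WT DIFF. *PPARG* was not called between the genotypes in DIFF (−1.57, edgeR adjusted *p* = 0.0709), and *GPD1* was too low to be tested there. These levels are of the order of those of *LIPG* and *CIDEA* in their lower groups. Of brown fat markers 5 of 10 were in the table, and *COX7A1* and *TMEM26* made up nearly all of their sum of 137 to 194 CPM in DMD PROL, 70.7 to 146 CPM in WT PROL, 171 to 231 CPM in DMD DIFF and 221 to 278 CPM in WT DIFF. *TMEM26*, a membrane protein gene, was higher in DMD as *CIDEA* was, at 28.3 CPM in DMD PROL and 8.50 CPM in WT PROL (edgeR adjusted *p* = 0.0103) and at 52.8 CPM in DMD DIFF and 15.4 CPM in WT DIFF (adjusted *p* = 9.1e-04). *COX7A1*, a subunit of cytochrome oxidase that muscle also expresses, was not called in PROL, at 138 CPM in DMD and 104 CPM in WT (edgeR adjusted *p* = 0.147), and was lower in DMD in DIFF, at 139 CPM against 244 CPM in WT (adjusted *p* = 7.8e-05). The part of fat cells in the members' levels was not tested. *DIO2* and *ELOVL3* held 14 and 2 counts, and *PPARGC1A*, listed as *PPARGC-1*, held 0. *LPL*, the enzyme that *ANGPTL4* inhibits, thus had no count in the cultures themselves. Whether its row could take up 3′ tags was not tested, so the 0 does not show that its RNA was absent. Of 5 blood cell markers (of 10 listed, nearly all *CD14*) the sum was 25.8 to 40.7 CPM in DMD PROL, 40.0 to 69.5 CPM in WT PROL, 18.2 to 24.5 CPM in DMD DIFF and 48.6 to 64.7 CPM in WT DIFF, and its part in the members' levels was not tested.

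To set the members beside their pathways, 202 genes of lipid and retinoid metabolism were listed, of which 109 are rows of the table, 14 of these without a count. Up to 56 passed the filter in a comparison. As with some members, *VLDLR*, *PDK4* and *BSCL2* in DIFF and *ANGPTL1* in PROL passed through 1 genotype alone. Their *p* values between genotypes carry that limit. In PROL 9 of 46 tested list genes were called, 5 higher in DMD and 4 lower, against 18.2% of all genes (8.36% higher and 9.87% lower). In DIFF 22 of 52 were called, 9 higher and 13 lower, against 33.6% (16.1% higher and 17.5% lower). The median log2 fold change of the list genes was −0.04 in PROL and −0.19 in DIFF, beside −0.0021 and −0.03 over all genes. With library size alone as scaling, the PROL calls split into 4 higher and 6 lower.

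Of 6 other lipid droplet genes tested, 1 was called between the genotypes in PROL and 2 in DIFF. This is near the share over all genes, 18.2% in PROL and 33.6% in DIFF. *HILPDA*, a droplet protein that inhibits triglyceride lipolysis and is listed under its older symbol *HIG2*, was at 178 ± 41.2 CPM in DMD DIFF and 97.2 ± 18.4 CPM in WT DIFF (log2 fold change 0.87, SE 0.17, edgeR adjusted *p* = 5.7e-04). *ABHD5*, the activator of the triglyceride lipase PNPLA2, was lower in DMD PROL at −1.33 (SE 0.40, edgeR adjusted *p* = 0.0211), and *BSCL2*, which encodes seipin, in DMD DIFF at −1.25 (SE 0.48, edgeR adjusted *p* = 0.0428). *BSCL2* kept its call under 1 of 16 other settings and lost it without any single library other than DMD DIFF replicate 4, with adjusted *p* of 0.0626 to 0.141. *ABHD5* lost it without DMD PROL replicate 2, 3 or 4 or WT PROL replicate 3, with adjusted *p* of 0.0504 to 0.0636. *PLIN2*, the most widespread droplet coat, was not called in either state, at −0.49 in PROL and 0.18 in DIFF. *FITM2*, the close relative of *FITM1*, held 12 counts in all libraries and was not tested.

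Of 9 genes of triglyceride and fatty acid synthesis tested in PROL 3 were higher and 0 lower, and of 13 tested in DIFF 4 were higher and 1 lower. Over all genes 8.36% were called higher and 9.87% lower in PROL, and 16.1% and 17.5% in DIFF. *ACSL3*, an acyl-CoA synthetase of nascent droplets, was at 54.6 ± 7.84 CPM in DMD PROL and 26.6 ± 5.67 CPM in WT PROL (1.02, SE 0.21, edgeR adjusted *p* = 0.00206). *AGPAT5*, an acyltransferase of phosphatidic acid synthesis, followed at 0.77 (SE 0.18, edgeR adjusted *p* = 0.00452). In DIFF its relative *AGPAT2* was at 33.5 ± 11.8 CPM in DMD and 9.37 ± 2.93 CPM in WT (1.82, SE 0.35, edgeR adjusted *p* = 3.7e-04). *FASN*, the fatty acid synthase, was called on both sides, higher in DMD in PROL (0.69, SE 0.22, edgeR adjusted *p* = 0.0280) and lower in DIFF (−0.83, SE 0.22, adjusted *p* = 0.00460). The PROL call was lost under 9 of 16 other settings, among them those without DMD PROL replicate 1, 3 or 4 or WT PROL replicate 3 or 4 (adjusted *p* 0.0574 to 0.0791), and the DIFF value was −0.59, under the fold threshold, without WT DIFF replicate 4. *ACSL1*, another acyl-CoA synthetase, was called in DIFF at 1.52 (SE 0.60, edgeR adjusted *p* = 0.0467) and kept the call under 3 of 16 settings, losing it without any single library other than WT DIFF replicate 4 (adjusted *p* 0.0605 to 0.117).

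In the list of lipases and their regulators 4 genes were tested in PROL and 5 in DIFF. *ANGPTL1*, a relative of *ANGPTL4* that is known for effects on vessels rather than on lipases, was at 2.10 ± 1.99 CPM in DMD PROL and 30.2 ± 24.2 CPM in WT PROL (−3.78, SE 0.75, edgeR adjusted *p* = 0.00340). In DIFF it was at 7.01 ± 2.78 CPM in DMD and 116 ± 15.8 CPM in WT (−4.03, SE 0.25, edgeR adjusted *p* = 2.1e-09). *MGLL*, the monoacylglycerol lipase, was higher in DMD PROL, at 45.9 ± 5.83 CPM against 11.3 ± 7.34 CPM in WT PROL (2.02, SE 0.36, edgeR adjusted *p* = 6.1e-04). In DIFF *LMF2*, of the lipase maturation factor family, was lower in DMD at −0.63 (SE 0.19, edgeR adjusted *p* = 0.0111), a value under the fold threshold without DMD DIFF replicate 3 (−0.56) or 4 (−0.55) or WT DIFF replicate 2 (−0.50). *GPIHBP1*, which holds lipoprotein lipase at the vessel wall, had no count.

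Of 7 genes of fatty acid and lipoprotein uptake tested in DIFF, 2 were called, against 33.6% of all genes. Both were higher in DMD and had their highest level in DMD DIFF, as *LIPG* had. *FABP5*, a fatty acid binding protein, was at 122, 126, 250.5 and 255 CPM in DMD DIFF, against 28.9, 10.3, 12.9 and 12.3 CPM in WT DIFF (3.53, SE 0.40, edgeR adjusted *p* = 7.1e-05). *VLDLR*, a receptor of triglyceride-rich lipoproteins, was at 25.2, 10.5, 13.0 and 8.54 CPM in DMD DIFF, against 1.38, 1.47, 0 and 0 CPM in WT DIFF (4.20, SE 0.71, edgeR adjusted *p* = 1.2e-04), on 84 and 4 counts. In PROL 1 of 7 tested was called, against 18.2% of all genes. It was *DBI*, the acyl-CoA binding protein, at 764 ± 63.6 CPM in DMD and 445 ± 37.9 CPM in WT (0.77, SE 0.09, edgeR adjusted *p* = 1.1e-05). *CD36*, a fatty acid transporter, held 22 counts in all and was not tested.

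Of 17 genes of the PPAR factors and fatty acid oxidation tested in DIFF, 7 were called lower in DMD and 1 higher, with a list median of −0.44. Over all genes 17.5% were called lower and 16.1% higher. *PDK4*, the kinase that turns off pyruvate dehydrogenase, is a PPAR target as *ANGPTL4* is, and was at 2.89 ± 2.38 CPM in DMD DIFF and 117 ± 38.6 CPM in WT DIFF (−5.25, SE 0.42, edgeR adjusted *p* = 3.4e-07). *HADHA*, of the mitochondrial trifunctional protein, was at 231 ± 20.2 CPM in DMD and 443 ± 32.5 CPM in WT (−0.95, SE 0.10, edgeR adjusted *p* = 6.1e-07). *ACADM*, a medium-chain dehydrogenase, was the one higher, at 0.67 (SE 0.11, edgeR adjusted *p* = 7.7e-05) and at 0.58 without WT DIFF replicate 2. In PROL 1 of 16 was called, against 18.2% of all genes. It was *CPT1A*, the carnitine palmitoyltransferase of the outer membrane, at −0.89 (SE 0.26, edgeR adjusted *p* = 0.0192). Without WT PROL replicate 3 it was at −0.57 (adjusted *p* = 0.0927 in edgeR).

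Of the retinoid genes 4 could be tested. In PROL 1 was called, lower in DMD, against 18.2% of all genes called. In DIFF 3 were called, 1 higher in DMD and 2 lower, against 33.6% of all genes. *DHRS7*, a short-chain dehydrogenase, was at 78.6 ± 21.9 CPM in DMD DIFF and 428 ± 43.2 CPM in WT DIFF (−2.45, SE 0.16, edgeR adjusted *p* = 1.0e-08), and *DHRS4*, a retinal reductase, was lower in DMD in both states, at −0.75 in PROL (SE 0.21, edgeR adjusted *p* = 0.0136) and −0.82 in DIFF (SE 0.14, adjusted *p* = 1.4e-04). Without WT PROL replicate 2 its PROL value was −0.60 (edgeR adjusted *p* = 0.0506). *TTR*, the plasma partner of *RBP4*, held 6 counts in all libraries.

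Between states 18 of 47 tested list genes were called in DMD, 11 higher and 7 lower in DIFF, and 18 of 50 in WT, 15 higher and 3 lower. Over all genes the shares were 28.4% and 32.2%. The median of the list genes was 0.05 in DMD and 0.42 in WT, beside 0.01 and 0.03 over all genes. Scaling by library size alone put the median of all genes at −0.32 in WT and split the WT calls into 8 higher and 7 lower, so the WT direction depends on the scaling. In DMD *HILPDA* rose by 1.58 (SE 0.19, edgeR adjusted *p* = 4.0e-06) and *PLIN2* by 0.67 (SE 0.14, adjusted *p* = 0.00134), while *MGLL* fell by 1.47 (SE 0.25, adjusted *p* = 1.5e-04) in the same test. In WT *PDK4* rose by 4.88 (SE 0.46, edgeR adjusted *p* = 6.4e-06), *DHRS7* by 2.26 (SE 0.12, adjusted *p* = 7.6e-10) and *ANGPTL1* by 1.90 (SE 0.47, adjusted *p* = 0.0117), and *PPARG* by 1.82 (SE 0.58, adjusted *p* = 0.0175) in the same test. *FABP5* was called in both genotypes, rising by 1.52 (SE 0.28, edgeR adjusted *p* = 0.00163) in DMD and falling in WT (−1.59, SE 0.46, adjusted *p* = 0.0140). Single libraries decided 3 of these calls. *FABP5* in WT had an edgeR adjusted *p* of 0.0523 without WT DIFF replicate 4, *PPARG* of 0.0501 without WT PROL replicate 3 and 0.0741 without WT DIFF replicate 2, and *PLIN2* in DMD was at 0.56 without DMD DIFF replicate 1.

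The interaction of genotype and state, tested for the list genes over all 16 libraries, was called in 18 of 56, of which 6 had the larger log2 change in DMD and 12 the smaller, against 23.4% of all genes (10.5% and 13.0%). Library size alone turned the split to 11 and 6, with the median of all genes at 0.25. *VLDLR* gave 5.13 (SE 1.13, edgeR adjusted *p* = 0.00133) and *FABP5* 3.09 (SE 0.60, edgeR adjusted *p* = 0.00128), the list genes with the largest positive values. *HILPDA* gave 1.06 (SE 0.27, edgeR adjusted *p* = 0.00391) and *PLIN2* 0.67 (SE 0.20, adjusted *p* = 0.0159), which was 0.56 to 0.59 without WT PROL replicate 1, DMD DIFF replicate 1 or WT DIFF replicate 2. On the other side *DHRS7* gave −2.36 (SE 0.22, edgeR adjusted *p* = 2.9e-08), *MGLL* −2.23 (SE 0.57, adjusted *p* = 0.00476) and *FASN* −1.53 (SE 0.32, adjusted *p* = 8.2e-04). Also called on that side were *PDK4* and *ACAA2* of the oxidation list. Over 24 other settings *PDK4* ran from −5.72 to −3.14 and lost the call under 6, and *ACAA2* ran from −4.18 to −3.16. The sign of *PDK4* is opposite to that of *ANGPTL4*.

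**Figure D3:**
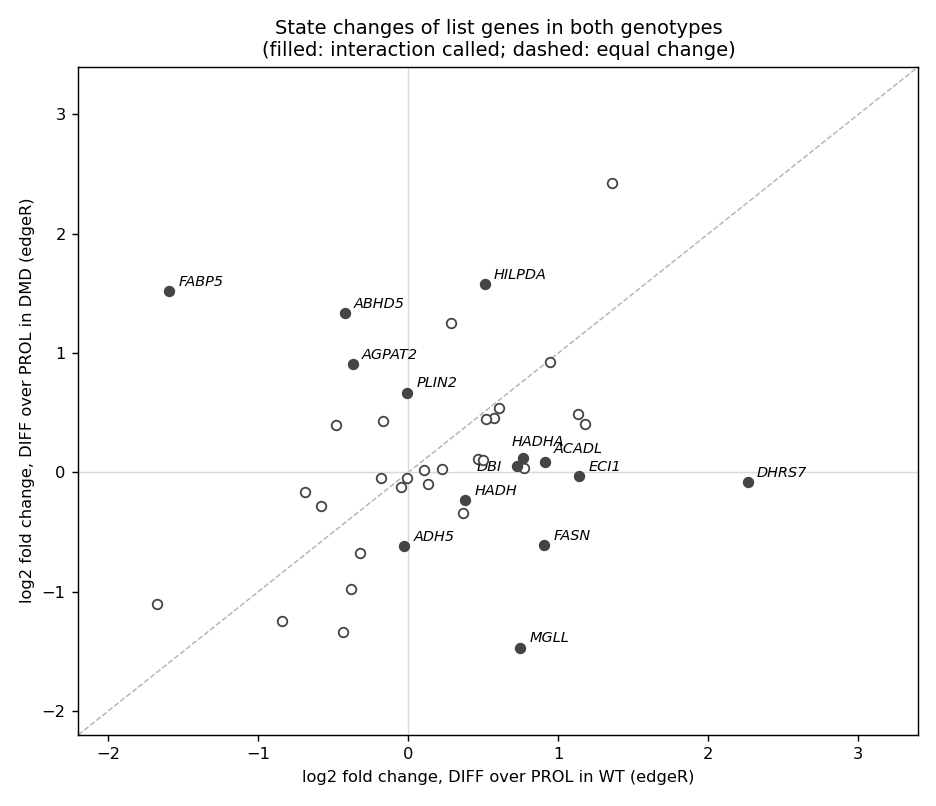
Log2 fold change of DIFF over PROL in DMD (vertical) and in WT (horizontal) for list genes tested in both genotypes (edgeR). Filled points have a called interaction and the dashed line marks equal change. *FABP5* (1.52 in DMD and −1.59 in WT) lies above the line, and *DHRS7* and *MGLL* lie below it.

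The genes whose profile over the 16 libraries was nearest to each member were found by the root mean square difference of centred log2 CPM, among 2025 other genes. *FITM1* was nearest to *CD82*, a tetraspanin (0.80), *SRPK3*, a kinase of muscle (0.88), and *PGAM2*, the muscle phosphoglycerate mutase (0.89). *CIDEA* was nearest to *LOC733663* (0.50), *PGAM2* (0.55) and *DES* (0.56). *FITM1* and *CIDEA* differed from each other by 1.03, the smallest value of the 10 pairs of members. *LIPG* was nearest to *NOR-1*, a nuclear receptor (0.94), *TAGLN*, a smooth muscle gene (0.95), and *DAPK2*, a kinase (0.95). *ANGPTL4* was nearest to *MFAP5*, a matrix protein that is also in the fibroblast list (0.53), *PTX3*, a secreted pentraxin (0.68), and *CLDN1*, a claudin (0.98). *RBP4* was nearest to *SOX9*, a transcription factor (0.81), *IGFBP6*, which binds insulin-like growth factors (1.06), and *GATA3*, a transcription factor (1.09). A value of 1 is a typical difference of 1 log2 unit per library, so the neighbours of *LIPG* and *RBP4* are loose, and the libraries share scaling and composition. The members themselves varied with an SD of 1.65 (*CIDEA*) to 2.22 (*RBP4*) log2 units over the libraries.

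**Figure D4:**
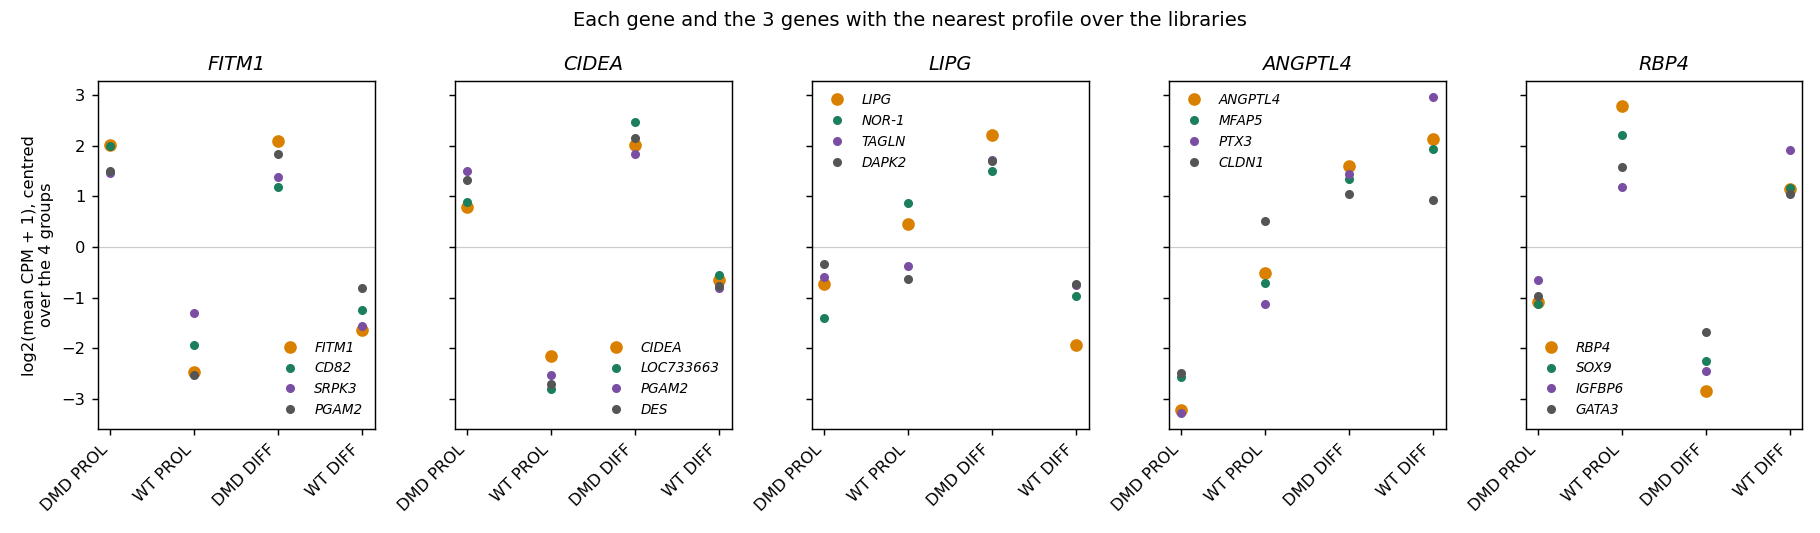
Log2 of mean CPM plus 1, centred over the 4 groups, for each member (large orange point) and its 3 nearest genes (smaller points) in DMD PROL, WT PROL, DMD DIFF and WT DIFF. The neighbours of *CIDEA* (0.50 to 0.56) lie close to it in every group, and those of *LIPG* (0.94 to 0.95) less so.

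Gene models limit 2 of the members. In the RefSeq annotation of Sscrofa11.1, a later build than the one counted, *FITM1* overlaps an uncharacterised RNA gene, *LOC110261592*, and *RBP4* lies within the span of *PDE6C*. Neither symbol is a row of the table, although *O3FAR1*, listed there as a synonym of *PDE6C*, is one with 2 counts in all libraries. The strand setting of the counting is not given in the sources used here, and reads of the overlapping genes cannot be told apart.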

How the data were processed

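RNA of 16 cultures was sequenced by the authors as 3′ mRNA libraries with unique molecular identifiers, in 2 technical duplicates. The methods and labels name bcl2fastq for demultiplexing, UMI-tools for molecular identifiers, FastQC with MultiQC for quality, and STAR 2.7.10b for alignment to susScr3 and gene counting; the annotation is not given in the sources used here. The deposited values are the raw count per gene in 32 columns, without normalization, and all 124000 values are even, which no source explains. The duplicates were added per sample. Of 3875 genes 608 had no count, and *RN18S* held 6.32% to 20.4% of a library. Columns of other series: 0.

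The quasi-likelihood test of edgeR 4.0.16, run under R 4.3.3, was fitted (filterByExpr with minimum count 10 and total 15, TMM, estimateDisp, robust glmQLFit, glmQLFTest) across all genes, and called at a Benjamini-Hochberg adjusted *p* under 0.05 with an absolute log2 fold change over 0.6. Genotype comparisons used the 8 libraries of a state, state comparisons the 8 of a genotype and the interaction all 16. The SE is the absolute log2 fold change over the square root of the F statistic. Replicates are separate animals. DIFF and PROL samples of 1 number share an animal. Correlations of deviations, taken from group means, were 0.0998 to 0.172 for such pairs and −0.03 to 0.10 for equal numbers across genotypes. The members, gene lists and tests were chosen with earlier results of these data known. Named genes are the members, the 3 nearest genes of each, up to 4 called genes per list and comparison by smallest *p*, and up to 3 per marker list by mean CPM; genes at or near 0 counts, *FITM2*, *CD36*, *TTR*, *GPIHBP1* and defining markers, were named after their values were seen. Of 285 list symbols 152 are in the table, 7 of them under a RefSeq synonym. Alternatives were library size alone, DESeq2 1.42.0, other filters (minimum count 20, or none), halved counts, each duplicate alone, a replicate block and leaving out each library. The fits were tested on simulated data. *PAX7*, *FABP4* and *STRA6* are not analysed here. Some list genes enter the counts of calls and are not reported singly here.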

Additional observations from a re-analysis of the deposited data

Results flagged for a closer look

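Of 20 groups (5 members in 4 groups of 4 libraries), 5 held a library that stood apart from the other 3 by Dixon's test, where chance gives about 1 in 20. One of the 5, *FITM1* in WT PROL, is no chance event of that kind, since with 0 in 3 libraries any count in the fourth stands apart. For *RBP4* in DMD DIFF the other 3 libraries tied at 2 counts each. The rate of 1 in 20 does not hold for such tied low counts either. *FITM1* was at 2.91 CPM in WT PROL replicate 1, with 0 in the others, and at 71.1 CPM in DMD DIFF replicate 4. *LIPG* was at 11.6 CPM in DMD PROL replicate 3, *RBP4* at 4.20 CPM in DMD DIFF replicate 1 and *ANGPTL4* at 500.7 CPM in WT DIFF replicate 3. The *FITM1* value in WT rests on 4 counts, that of *LIPG* on 20 and that of *RBP4* on 6.

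For *LIPG* the DIFF over PROL change of DMD minus that of WT was 6.03 on the log2 scale, with all DMD animals moving up and all WT animals moving down. The difference was not tested, since the gene was chosen on the contrasts that form it.

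Of the 18 list genes with a called interaction (edgeR, 16 libraries), up to 4 per list are given. The DMD change was the larger for *VLDLR* (5.13), *FABP5* (3.09), *ABHD5* (1.75), *AGPAT2* (1.27), *HILPDA*, counted as *HIG2* (1.06), and *PLIN2* (0.67). It was the smaller for *SCD5* (−2.43), *DHRS7* (−2.36), *MGLL* (−2.23), *FASN* (−1.53), *ECI1* (−1.18), *ACADL* (−0.84), *DBI* (−0.68), *HADHA* (−0.65), *HADH* (−0.62) and *ADH5* (−0.60). *ABHD5*, *AGPAT2*, *SCD5* and *ADH5* lost the call under 13 to 16 of 24 other settings.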

How the results depend on the processing

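Over 27 results and 398 values under other settings, 7 moved, a fold change by over 1 SD between replicates or a count by over 1.5 times, and 0 reversed a called direction. *ANGPTL4* in DIFF, which moved by less, crossed the fold threshold of 0.6 at −0.64 with the second duplicate alone and without DMD DIFF replicate 2, and the uncalled value of *FITM1* between DMD states ran from −0.34 to 0.30. The values of *LIPG* and *FITM1* between WT states and of *RBP4* between DMD states come from the fit without the filter. Single duplicates, which are shallower, gave 6 and 4 list genes in PROL (first and second), 13 and 17 in DIFF, 13 and 9 between DMD states, 14 and 19 between WT states and 11 and 12 for the interaction, lower than with both added except for the 19, against 18. The log2 fold change of *FITM1* in PROL was 7.99 with the first duplicate alone and 4.53 with the second. Leaving out single libraries gave 6 to 9 list genes in PROL, 18 to 22 in DIFF, 14 to 17 between DMD states, 17 to 20 between WT states and 13 to 19 for the interaction, and 5.18 to 8.89 for *FITM1* in PROL, 3.78 to 4.73 in DIFF, −2.12 to −1.01 for *LIPG* in PROL and −5.08 to −4.17 for *RBP4* in DIFF. With halved counts, a minimum count of 20 or the first duplicate alone *CIDEA* in WT did not pass the filter. With the replicate block 8, 21, 18, 19 and 19 list genes were called in PROL, DIFF, the DMD states, the WT states and the interaction. The replicate number marks the animal in state comparisons and is a mere number between genotypes. The block changed no state call of *ANGPTL4*, of *CIDEA* in DMD or of *RBP4* in WT. Depth limits *FITM1* and *LIPG* in WT and *RBP4* in DMD, which held few counts.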
